A study of Homo sapiens with 10 samples.

Results

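The genes described here encode the proteins of the cytosolic ribosome. They were chosen by name alone: a row of the count table was taken if its gene name was RPL or RPS followed by a number, with or without a final A or X, or was RPLP0, RPLP1, RPLP2 or RPSA. The rule took 77 of 60574 gene rows, of which 31 encode small subunit and 46 large subunit proteins, and all 77 had enough reads to be tested. RACK1 and FAU also encode ribosomal proteins, but their names fall outside the rule, and they are given separately.

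The cells were U266, an established line grown from a human multiple myeloma and labelled as plasma cells. All cells had been transduced with dCas9-VPR, a Cas9 that cannot cut DNA fused to transcriptional activators, and were kept under blasticidin and puromycin. In 5 libraries, lettered A to E, the guide RNA was directed at the start of EFNB2, the gene of the membrane ligand ephrin-B2. In the 5 control libraries, also lettered A to E, it was a scrambled sequence that targets nothing. The control cells therefore shared the activator, the viral transductions and the selection. Both groups come from 1 cell line. Nothing in the labels says that the libraries sharing a guide were grown or transduced apart, and p-values then reflect only how much these libraries vary, which may be technical.

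Ribosomal proteins are made in matched amounts, assembled with ribosomal RNA in the nucleolus, and exported as separate small and large subunits. The small subunit reads the messenger RNA, and the large subunit joins the amino acids and holds the exit tunnel and the stalk that binds elongation factors. Most of their messenger RNAs begin with a C and a run of pyrimidines, the 5′ terminal oligopyrimidine (TOP) start, through which mTORC1 and LARP1 set their translation and stability. Plasma cells, which secrete antibody, and myeloma cells are known for high rates of protein synthesis.

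The TOP start is shown here for members that fell most and for members that did not fall, since it is the sequence feature the family shares. Each line gives 10 bases before and 20 bases from the transcription start listed by RefSeq (GRCh38.p14), 5′ to 3′ on the transcribed strand, with the pyrimidine run that begins at the first transcribed base in capitals. RPL35A, RPS6 and RPL31 are among the largest falls, and RPLP0, RPLP1 and RPS21 did not fall. The listed starts of RPS4X and RPL4 are an A, so these 2 have no capitals, though other transcribed starts may exist.
RPL35A: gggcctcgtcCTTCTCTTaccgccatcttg
RPS6: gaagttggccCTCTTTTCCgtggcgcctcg
RPL31: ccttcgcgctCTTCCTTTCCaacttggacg
RPLP0: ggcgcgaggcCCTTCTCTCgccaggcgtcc
RPLP1: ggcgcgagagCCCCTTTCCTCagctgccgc
RPS21: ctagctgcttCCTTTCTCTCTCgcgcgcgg
RPS4X: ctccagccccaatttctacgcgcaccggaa
RPL4: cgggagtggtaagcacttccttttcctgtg
On the same build these windows lie at chr3:197950180-197950209 (plus strand), chr9:19380217-19380246 (minus), chr2:101002279-101002308 (plus), chr12:120201092-120201121 (minus), chr15:69452808-69452837 (plus), chr20:62387093-62387122 (plus), chrX:72277229-72277258 (minus) and chr15:66504836-66504865 (minus), in the order of the lines. A start with C and at least 4 more pyrimidines directly after it was found in 46 of the 62 members that the RefSeq table lists, against 1404 of 27305 listed genes (5.14%). It was as common in the small subunit (18 of 24) as in the large (28 of 38).

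The libraries held 47268072 to 54761361 counts with the EFNB2 guide and 52142380 to 56513548 in controls. EFNB2 itself lay at 1.21 ± 0.198 CPM with its guide and at 0.119 ± 0.0509 CPM in controls (SD, n = 5 each), where CPM is the count per 1e+06 counts of the scaled library size. Its log2 fold change was 3.32 (SE 0.25, edgeR adjusted p = 4.68e-08). All 11 plasma cell markers on the list were detected, summing to 8832 to 9194 CPM with the EFNB2 guide and to 9272 to 10438 CPM in controls (5 fell and 4 rose). Markers of other cell types were low, with sums of 1.74 to 2.49 CPM for 6 epithelial, 0.164 to 0.481 for 5 erythroid (ALAS2 at 0) and 2.06 to 3.40 for 6 myeloid genes (S100A8 at 0). The 6 fibroblast genes summed to 25.6 to 30.1 CPM with the EFNB2 guide and 20.2 to 27.3 CPM in controls, mostly from COL1A1. The 6 T cell genes summed to 11.7 to 13.1 CPM with the EFNB2 guide and 9.60 to 10.9 CPM in controls, mostly from TRAC and without overlap between the guides. The part of the totals and of the marker levels in the results was not tested. For several genes the A library of a guide lay nearer to the other guide than its fellows did, so the main counts are also given without both A libraries.

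Ribosomal protein transcripts were slightly lower with the EFNB2 guide. Of the 77 members, 68 fell, 2 rose and 7 did not pass (edgeR's quasi-likelihood test, adjusted p under 0.05 over 17834 genes). Of all tested genes, 22.6% passed as lower and 22.8% as higher, 45.4% in all. The median log2 fold change of the members was -0.19, with quartiles of -0.25 and -0.16, while the median of all tested genes was 0.01. The changes were small, and 61 of the 68 that fell had log2 fold changes between -0.30 and -0.08. Without both A libraries 67 fell and 3 rose. In bulk RNA, fewer cells of a kind and less RNA per cell cannot be told apart.

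The separation of the libraries was clearer than the size of the change. In 61 members all 5 EFNB2-guide libraries lay below all 5 controls, in 1 (RPL4) they lay above, and in 15 the groups overlapped; among all tested genes, 15.2% lay wholly below and 15% wholly above. The median deviation of the members from the mean of the controls was between -0.18 and -0.23 (log2) in the EFNB2-guide libraries, lowest in C. In the control libraries A to E it was -0.06, -0.03, 0.08, 0.02 and -0.00. The controls thus also spread together, with 68 members below the control mean in library A and 5 below it in library C. Without control C the members' median was -0.17.

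**Figure D1:**
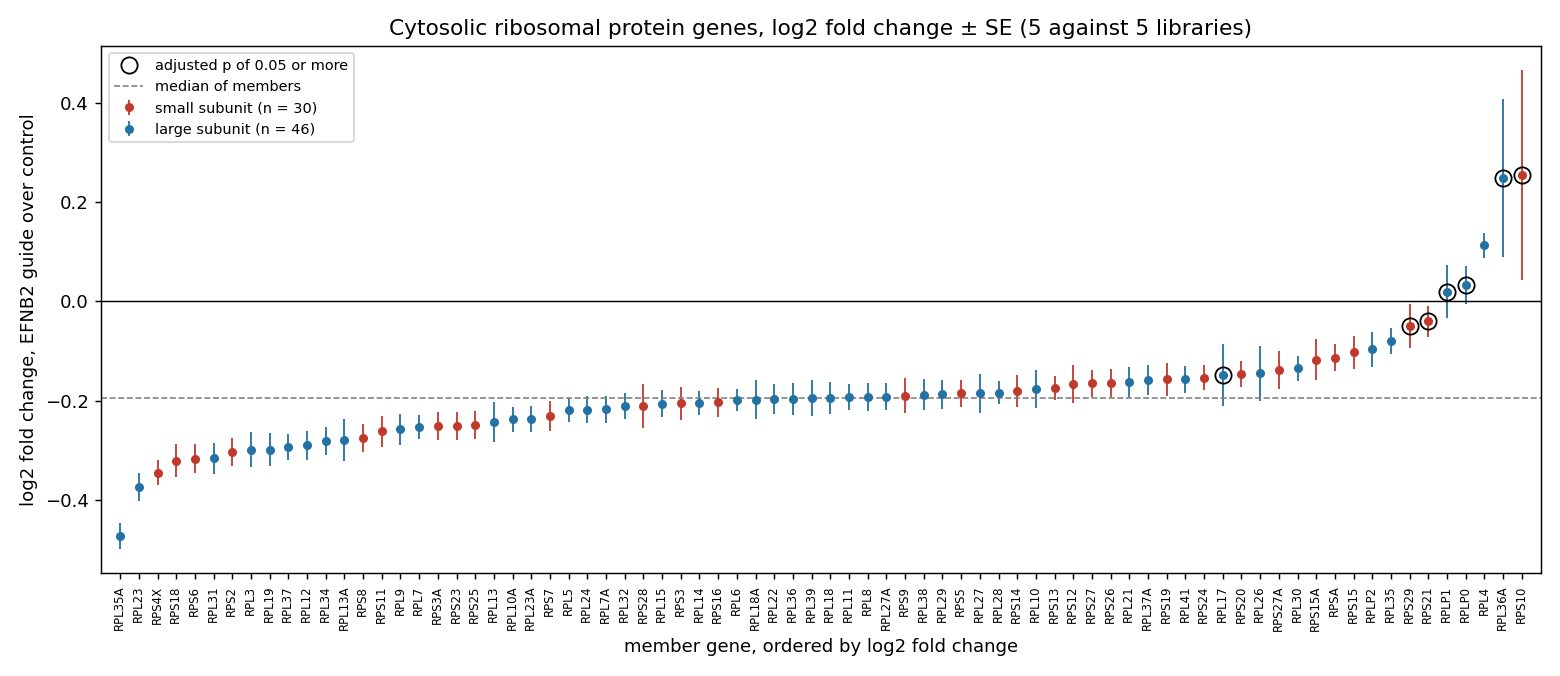
Each point is a ribosomal protein gene, ordered by log2 fold change of the EFNB2 guide over control (vertical axis, bars ± SE, 5 against 5 libraries), red for the small and blue for the large subunit; rings mark the 7 members that did not pass. Most points lie in a narrow band around the dashed median of -0.19, with RPL35A lowest at -0.47 and RPL36A and RPS10 highest at 0.25. 1 member is not drawn.

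Both subunits moved in the same direction. Of the 31 small subunit genes 27 fell, 1 rose and 3 did not pass, with a median of -0.18. Of the 46 large subunit genes 41 fell, 1 rose (RPL4) and 4 did not pass, with a median of -0.20. The medians differed by 0.02 on the log2 scale.

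The summed small subunit transcripts lay at 18177 ± 312 CPM with the EFNB2 guide (17642 to 18461) and at 21125 ± 827 CPM in controls (20239 to 22330; SD, n = 5 each), a ratio of 0.860. The summed large subunit transcripts lay at 32183 ± 729.5 CPM (30996 to 33006) against 35863 ± 1516 CPM (34011 to 37972), a ratio of 0.897. Neither sum overlapped between the guides. Ribosomal protein transcripts together took 4.92 to 5.12% of all counts with the EFNB2 guide and 5.48 to 5.96% in controls.

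The ratio of summed small to summed large subunit counts was 0.565 ± 0.00359 with the EFNB2 guide and 0.589 ± 0.00336 in controls (SD, n = 5 each). It ran from 0.559 to 0.569 and from 0.587 to 0.595, with no overlap, and control A was the highest of all. This difference rested on 3 genes with many reads. RPLP0, RPLP1 and RPL4 held 23.0 to 28.5% of the large subunit counts, and none of them fell. Without them the ratio was 0.776 ± 0.00394 against 0.772 ± 0.00105, the ranges 0.772 to 0.782 and 0.770 to 0.772 overlapped, and the difference had the opposite sign; this alternative was chosen after seeing the data.

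**Figure D2:**
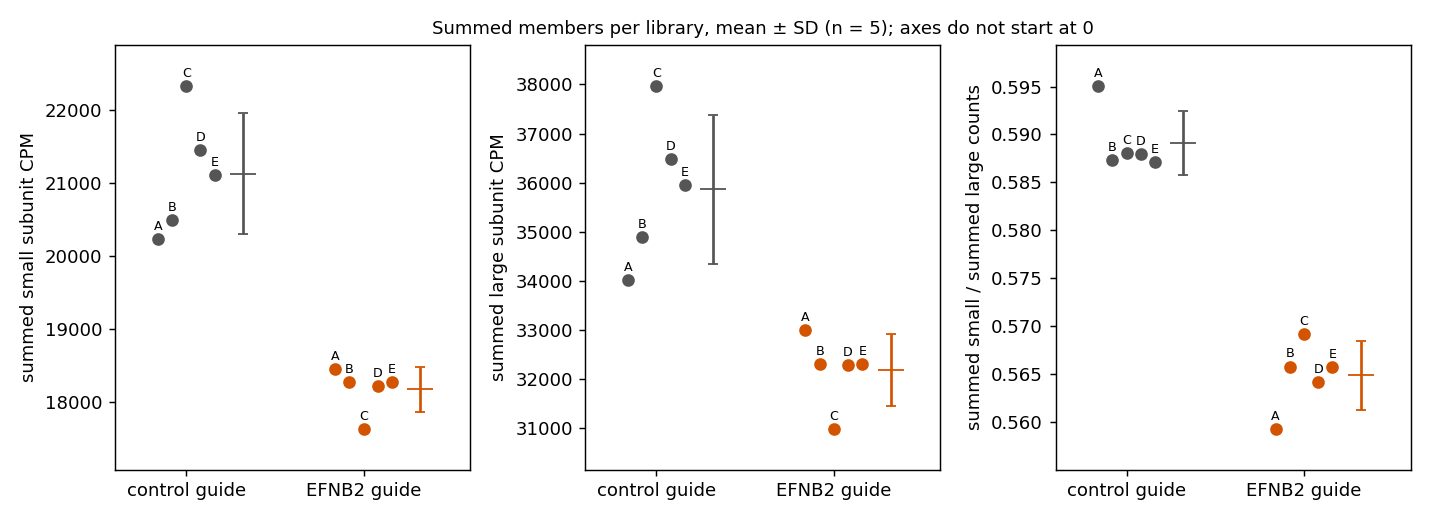
Summed CPM of the 31 small subunit genes, summed CPM of the 46 large subunit genes and the ratio of their counts in each library (points, lettered A to E; bars are mean ± SD, n = 5; the vertical axes do not start at 0). Both sums and the ratio are lower in all 5 EFNB2-guide libraries than in any control, with small subunit sums of 17642 to 18461 against 20239 to 22330 CPM.

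RPL35A, a large subunit protein whose gene is mutated in some Diamond-Blackfan anemia families, fell most of the 77. It lay at 281, 287, 274, 290.1 and 295 CPM in EFNB2-guide libraries A to E and at 389.6, 395, 415, 391 and 389 CPM in control libraries A to E. All EFNB2-guide libraries lay far below all controls, and the spread within either guide was small beside the gap. The log2 fold change was -0.47 (SE 0.03, edgeR adjusted p = 1.51e-09).

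RPL23, a large subunit protein that can also bind MDM2, was next. It lay at 612, 613, 605, 637 and 627 CPM with the EFNB2 guide and at 763, 799.6, 851, 799 and 795 CPM in controls A to E. The groups did not overlap, although control A was the lowest and C the highest control (log2 fold change -0.37, SE 0.03, edgeR adjusted p = 4.71e-08).

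RPS4X, an X-linked small subunit gene, lay at 852, 844, 824, 877 and 852 CPM with the EFNB2 guide and at 1028, 1089, 1113, 1095 and 1072 CPM in controls. Again every EFNB2-guide library was below every control (log2 fold change -0.34, SE 0.03, edgeR adjusted p = 4.65e-08).

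RPS6, the small subunit protein phosphorylated by S6 kinase downstream of mTORC1, lay at 1227, 1199, 1183, 1129.8 and 1216 CPM with the EFNB2 guide and at 1418, 1483, 1542, 1521 and 1456 CPM in controls. The groups were separate, with library D lowest of the EFNB2 guide and C highest of the controls (log2 fold change -0.32, SE 0.03, edgeR adjusted p = 4.02e-07). RPS18 and RPL31, the remaining members of the 6 largest falls, both had a log2 fold change of -0.32 with separate groups. In RPS18 the EFNB2-guide libraries lay at 979 to 1033 CPM and the controls at 1198 to 1369 CPM. In RPL31 they lay at 387 to 413 CPM and at 473 to 537 CPM.

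RPL4, whose protein lines the exit tunnel, was the one well-covered member that rose. It lay at 2124, 2128, 2087, 2177 and 2159 CPM with the EFNB2 guide and at 1899.7, 1977, 2059, 1987 and 1947 CPM in controls A to E. The groups did not overlap, but EFNB2 C and control C were only a little apart (log2 fold change 0.11, SE 0.03, edgeR adjusted p = 0.0018).

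RPLP0 and RPLP1 form, with RPLP2, the acidic stalk of the large subunit that binds elongation factors. RPLP0 lay at 3734, 3407, 3270.1, 3420.0 and 3396 CPM with the EFNB2 guide and at 3120.0, 3317, 3552, 3465 and 3386 CPM in controls. RPLP1 lay at 3546, 3193, 2953, 3087 and 3151 CPM and at 2791, 3015, 3445, 3256 and 3206 CPM. In both genes the groups overlapped, library A being highest with the EFNB2 guide and lowest in controls, and the log2 fold changes were 0.03 (SE 0.04) and 0.02 (SE 0.05), neither past the threshold (edgeR adjusted p = 0.52 and 0.794). RPLP2, the third stalk gene, had a log2 fold change of -0.10 with overlapping groups (566 to 597 against 580.3 to 670.2 CPM). Its call (edgeR adjusted p = 0.0345) was lost without any 1 of the C, D or E libraries of either guide and with library totals alone (adjusted p from 0.0571 to 0.101).

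**Figure D3:**
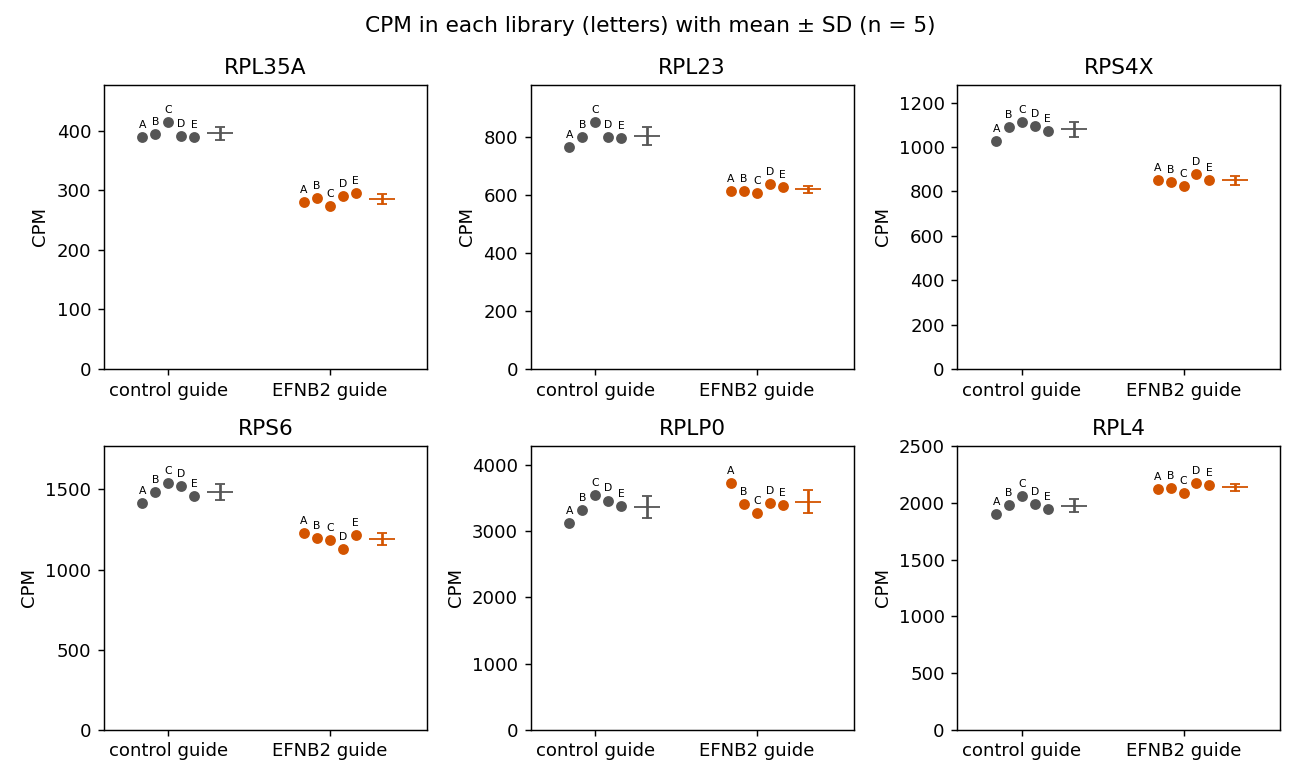
CPM (vertical axes, from 0) of 6 members in each control-guide (grey) and EFNB2-guide (orange) library, lettered A to E, with mean ± SD (n = 5). RPL35A, RPL23, RPS4X and RPS6 are lower in every EFNB2-guide library, RPLP0 overlaps between 3120.0 and 3734 CPM, and RPL4 is slightly higher with the EFNB2 guide.

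RPL5 and RPL11, which carry 5S ribosomal RNA into the large subunit and can bind MDM2, both fell. RPL5 lay at 592 to 624 CPM with the EFNB2 guide and at 688 to 727 CPM in controls (log2 fold change -0.22). RPL11 lay at 703 to 731 CPM and at 791 to 869.6 CPM (log2 fold change -0.19). Neither range overlapped between the guides. RPS27A, made as a fusion with ubiquitin, had a log2 fold change of -0.14 (edgeR adjusted p = 0.00875), and its groups overlapped, at 527 to 573 CPM with the EFNB2 guide and 561 to 654 CPM in controls.

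The other members of the narrow band are best seen by role. Of the genes whose loss is known from Diamond-Blackfan anemia, RPS19 lay at 499 to 529.5 CPM with the EFNB2 guide and at 534 to 615 CPM in controls (log2 fold change -0.16), and RPS26 at 200.3 to 213 CPM and at 220.4 to 244 CPM (-0.17). RPS24 (-0.15) and RPS7 (-0.23) fell as well, and in these 4 no EFNB2-guide library reached the lowest control. The 4 are not all the genes known from that disease, and they were chosen after their values were seen. RPS14, the gene of the small subunit lost in the 5q- syndrome, fell from 569.8 to 503 CPM (-0.18). In the large subunit RPL19 and RPL37 were at -0.30 and -0.29, RPL12, at the base of the stalk, at -0.29, and RPL8 at -0.19. RPL41, the smallest of the proteins, was at -0.16. RPSA, which is also known as a laminin receptor, fell less than most (-0.11), from 895 to 828 CPM, and its groups did not overlap.

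Members that have a related gene elsewhere in the genome can be set beside that paralog. RPL3, at the peptidyl transferase centre, had a log2 fold change of -0.30, RPL7 of -0.25, RPL22 of -0.20, RPL39, in the exit tunnel, of -0.19, RPL10, which joins the subunit late, of -0.18 and RPS27 of -0.17, and all of these passed. RPL26 (-0.15) passed as well, but its call was lost in 12 of 23 alternatives. RPL36A (0.25) did not pass. Of the 8 paralogs listed, 6 had enough reads to be tested, 1 fell and 1 rose, where 22.6% of all tested genes fell and 22.8% rose. RPL7L1 fell (-0.21, 213 to 228 against 240.0 to 256 CPM), and RPS27L, known as a p53-induced gene, rose (0.36, 24.7 to 28.4 against 19.2 to 22.5 CPM). RPL22L1 (0.02), RPL26L1 (-0.01), RPL36AL (-0.01) and RPL39L (0.05) did not pass, and RPL3L and RPL10L were not tested. The median of the 6 was 0.00. Whether a paralog's change differed from that of its member was not tested. The paralogs were not set against the genes around them on the chromosome. Neither the part of p53 nor that of chromosomal position in the rise of RPS27L was tested.

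Of the ribosomal proteins outside the name rule, RACK1, a scaffold on the small subunit, fell from 1102 to 976 CPM (log2 fold change -0.17, edgeR adjusted p = 3.02e-05). FAU, a small subunit protein made as a fusion with a ubiquitin-like domain, was at -0.06 and did not pass (edgeR adjusted p = 0.149).

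To see which members moved more or less than the family, every library was scaled to its summed ribosomal protein counts in place of its total, and the same test was run on all genes. Relative to this pool 20 members were lower, 10 were higher and 47 did not pass. With this scaling 6.82% of all tested genes passed as lower and 50.8% as higher, 57.7% in all, and the median of all genes became 0.18. Scaling to the members sets that median, so the members' counts are not read against those shares. By subunit, 9 small subunit genes were lower and 5 higher, and 11 large subunit genes were lower and 5 higher.

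The members furthest below the pool were RPL35A (-0.30, SE 0.03), RPL23 (-0.20), RPS4X (-0.17), RPS18 (-0.14), RPS6 (-0.14) and RPL31 (-0.14). The furthest above it included RPL4 (0.29, SE 0.03), RPLP0 (0.21), RPLP1 (0.20), RPS21 (0.14) and RPS29 (0.13). These 11 kept their call in all 17 alternatives to this fit. RPS21 and RPS29, both small subunit proteins, stood above the pool while their CPM overlapped between the guides. RPS21 lay at 304 to 332 against 311 to 346 CPM, and RPS29 at 244 to 293 against 261 to 294 CPM. Also above the pool were RPSA, RPS15, RPLP2 and RPL35. The pool is weighted to abundant genes, and when libraries were scaled instead by the median of ratios over the members, 13 were lower and 13 higher.

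The members that departed most were compared with the genes around them on the chromosome, as a description with no test. RPL35A lies in 3q29 (chr3:197950190-197956610), and the 14 tested non-member genes within 1 Mb of it had a median log2 fold change of -0.32 (7 fell and 2 rose). RPL31 (chr2:101002289-101019724) had 7 such neighbours with a median of -0.25 (4 fell), which was -0.42 within 0.5 Mb and -0.11 within 2 Mb. The other 4 members furthest below the pool had no such surroundings. The 30 neighbours of RPL23 had a median of 0.04, and the 15 of RPS4X a median of -0.02. The 48 neighbours of RPS18 had a median of 0.12 (7 fell and 20 rose), and the 7 of RPS6 a median of 0.06.

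At the upper end, RPL4 (chr15:66498015-66504855) had 15 neighbours with a median of 0.22, and RPLP1 (chr15:69452818-69456205) had 6 with 0.28. Over chromosome 15 as a whole, 351 of 499 tested non-members rose and 24 fell, with a median of 0.31. RPLP0 (chr12:120196699-120201111) had 25 neighbours with a median of 0.30, of which 20 rose and 0 fell. Over 12q24, where RPLP0 lies, 116 of 193 tested non-members rose and 31 fell, with a median of 0.22. RPL6 lies in 12q24 as well (chr12:112405181-112418835), but its 26 neighbours had a median of -0.05. RPL6 fell from 741 to 645 CPM (log2 fold change -0.20). RPL4, RPLP0 and RPLP1 thus lay among genes that were higher, and each lay below the median of its neighbours. The 20 neighbours of RPS21 had a median of 0.09 (4 fell and 11 rose), and the 19 of RPS29 a median of -0.01 (5 fell and 9 rose).

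Over 68 members with at least 5 neighbours and without a same-strand overlap of 40% (described next), the correlation between a member's log2 fold change and its neighbours' median was 0.54 (Pearson) and 0.25 (Spearman). The points share libraries, and some share neighbours, so no p is given. Without RPL35A, RPL4, RPLP0 and RPLP1 the correlations over the other 64 were 0.13 and 0.10. These 4 were chosen after their values were seen. Leaving them out narrowed the neighbours' medians from -0.32 to 0.30 down to -0.25 to 0.12, which by itself lowers a correlation. The part of the neighbourhood in these results was not tested.

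**Figure D4:**
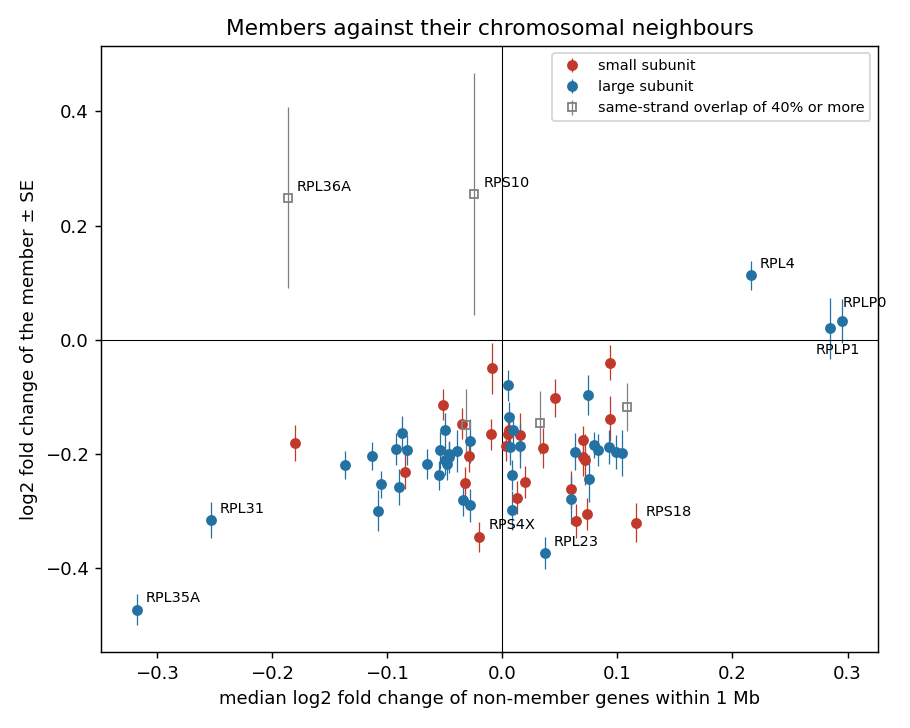
Each point sets a member's log2 fold change (vertical axis, ± SE) against the median log2 fold change of the tested non-member genes within 1 Mb (horizontal axis); grey squares are members with a same-strand overlap of 40% or more. RPL35A and RPL31 stand at the lower left, RPL4, RPLP0 and RPLP1 at the right, and most other members form a flat band near -0.19.

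A handful of members had few reads. RPS10, RPL17, RPL36A, RPL26 and RPS15A lay at 2.56 to 98.2 CPM per kilobase of coding sequence. In the GENCODE 29 annotation they are among the 6 members in which exons of another gene on the same strand cover at least 40% of the transcript (41.5 to 91.0%). In the other 71 members the overlap was at most 26.4% and the level 127 to 9252 CPM per coding kilobase. The overlapping genes are read-through or copy models, such as RPS10-NUDT3, RPL36A-HNRNPH2 and RPL17-C18orf32, and the rows of these overlapping genes held 0 counts in all libraries. How reads shared by 2 genes were counted is not given in the sources used here, so the levels of these members are uncertain.

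Of these 5, RPL26 and RPS15A fell and 3 did not pass, whereas 66 of the other 71 fell, 1 rose and 4 did not pass. RPL36A lay at 5.22, 7.48, 8.53, 7.27 and 7.71 CPM with the EFNB2 guide and at 8.98, 6.23, 5.50, 4.59 and 5.16 CPM in controls. It did not pass (0.25, SE 0.16), but without both A libraries, of which the control was the highest and the EFNB2 one among the lowest, its log2 fold change was 0.53 (edgeR adjusted p = 8.14e-06). RPS10 lay between 0.881 and 1.98 CPM in the 10 libraries and did not pass (0.25, SE 0.21). RPL17 did not pass with all libraries (-0.15, edgeR adjusted p = 0.0676) but did without control A, without both A libraries and on the deposited normalized values. The falls of RPL26 (-0.15, edgeR adjusted p = 0.0443) and RPS15A (-0.12, edgeR adjusted p = 0.03) were each lost without several single libraries. For RPL26 these were A, B, C or D of the EFNB2 guide and A, B or E of the controls (adjusted p from 0.0544 to 0.156 over these and the other alternatives that lost it). For RPS15A they were A, B, C or E of the EFNB2 guide and B or E of the controls (0.0516 to 0.0781).

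**Figure D5:**
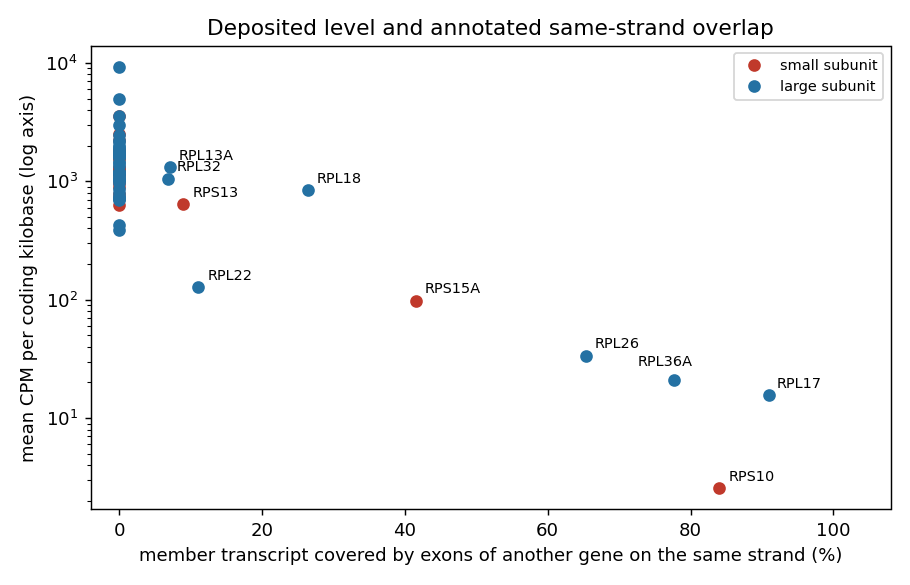
Mean CPM per kilobase of coding sequence over all libraries (vertical axis, log scale) against the share of a member's transcript covered by exons of another gene on the same strand (horizontal axis, %), red for the small and blue for the large subunit. The 5 members drawn with 41.5 to 91.0% covered are the 5 lowest, and 71 lie at 127 or more.

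The TOP start was set beside the changes without a test. Among the 46 with such a start 41 fell and 5 did not pass, with a median of -0.19. Among the 16 listed without one 13 fell, 1 rose and 2 did not pass, with a median of -0.21. This split depends on the exact base listed by RefSeq, which was not checked against the reads. In RPL4, RPL10A and RPL9, counted among the 16, a pyrimidine run begins a few bases after the listed start. The 16 are thus not shown to lack a TOP start. Other short genes and other genes with many reads stood nearer to 0. Tested non-members with a coding length under 500 bases had a median of -0.02 (28.5% passed as lower), and the 449 non-members above 300 CPM had a median of -0.00 (31.8% lower, 28.1% higher).

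Other messenger RNAs known for a TOP start were lower with them. Of 21 tested translation factors and related genes on that list, 15 fell, 3 rose and 3 did not pass, with a median of -0.14. Over all tested genes, 22.6% fell and 22.8% rose. TPT1, a classic TOP messenger RNA, fell (-0.36, 738 to 832 against 946 to 1054 CPM), as did NAP1L1, a histone chaperone (-0.44, 664 to 704 against 886 to 945 CPM). The elongation factors EEF1A1 (-0.18), EEF1B2 (-0.32) and EEF2 (-0.21) fell too. PABPC4, a poly(A)-binding protein, rose (0.30, 1245 to 1301 against 1029 to 1045 CPM), and so did VIM, vimentin (0.15), and EIF4A2 (0.10).

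A mixed list of ribosomal protein chaperones, importins and ribosome-associated factors gave 9 falls and 2 rises among 19, with a median of -0.06. Its largest fall was NAP1L1 (-0.44), which is counted on the TOP list above as well. TSR2, which escorts RPS26, fell (-0.21), while IPO9, an importin (0.14), and LTV1, which acts on the small subunit (0.13), rose. Assembly factors moved both ways, where 22.6% of all tested genes fell and 22.8% rose. Of 56 for the small subunit 23 fell and 5 rose (median -0.04), with UTP14A (-0.25) and DDX49 (-0.24) the largest falls named by the rule and UTP3 (0.57) and NOC4L (0.25) the largest rises. Of 61 for the large subunit 15 fell and 11 rose (median -0.02), with ZNF593 and RRP15 (both -0.23) the largest falls and DDX51 (0.57) and DDX55 (0.48) the largest rises. Genes on this and the other lists were not set against the genes around them on the chromosome. Some may lie in regions that were higher, such as 12q24 and chromosome 15. The part of position in the listed rises and falls was not tested.

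The machinery of ribosomal RNA synthesis did not move in 1 direction. Of 21 tested genes for RNA polymerase I and its factors 7 fell and 4 rose (median -0.00). Beside this list and the next, 22.6% of all tested genes fell and 22.8% rose. The catalytic subunits POLR1A (-0.20) and POLR1B (-0.16) fell, and the promoter factors TAF1B (0.20) and TAF1C (0.19) rose. The falls numbered 4 without EFNB2 E and the rises 2 without control C. Of 14 hosts of small nucleolar RNAs 3 fell and 2 rose, with SNHG8 (-0.37) and SNHG5 (-0.24) lower and SNHG15 (0.17) and SNHG17 (0.12) higher. The number that rose was 6 without both A libraries and 1 without any single B, C or E library of either guide or control D.

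Regulators of TOP messenger RNAs gave 12 falls and 3 rises among 23, with a median of -0.09, where 22.6% of all tested genes fell and 22.8% rose. PDCD4, which inhibits the helicase eIF4A, fell most (-0.61, 1129 to 1399 against 1594 to 1915 CPM), and DEPTOR, an inhibitor of mTOR that is abundant in some myelomas, fell as well (-0.47). AKT1S1, an inhibitory mTORC1 subunit (0.37), and TSC2, which restrains mTORC1 (0.14), rose. LARP1, which binds the TOP start, fell slightly (-0.10, edgeR adjusted p = 0.00881) with overlapping groups, and MTOR was at -0.02 and did not pass.

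MYC, a transcription factor known to drive ribosomal protein and ribosome assembly genes, lay at 6.54 to 9.09 CPM with the EFNB2 guide and at 15.7 to 17.6 CPM in controls (log2 fold change -1.16). On the list of MYC and its partners 3 of 7 fell and 1 rose, where 22.6% of all tested genes fell and 22.8% rose. MYCN rose from low counts (0.87, 1.52 to 2.78 CPM). MYCL, at 388 to 479 CPM in controls and 412 to 438 CPM with the EFNB2 guide, did not pass (-0.11, edgeR adjusted p = 0.0605).

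Genes that link RPL5 and RPL11 to p53 gave 3 falls and 2 rises among 8 (median 0.02). GTF3A, the transcription factor of 5S ribosomal RNA (-0.25), and CDKN1A, a p53 target (-0.20), fell, and HEXIM1 (0.21) and MDM4, an inhibitor of p53 (0.18), rose. Ribosome quality control genes gave 4 falls and 6 rises among 19 (median 0.02). For both lists the shares over all tested genes were 22.6% lower and 22.8% higher. GCN1, a sensor of collided ribosomes (0.30), and HBS1L, a ribosome rescue factor (0.24), rose, and RNF14 (-0.33) and PELO, the partner of HBS1L (-0.15), fell. The falls on this list numbered 1 without EFNB2 B or control D, 2 without EFNB2 D, EFNB2 E or control B, and 7 without control A. Here too the part of chromosomal position, as in the rise of GCN1, was not tested.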

How the data were processed

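RNA was measured in 10 libraries, 5 per guide, assigned by the genotype in the labels. Poly(A) RNA was made into strand-specific libraries and sequenced as read pairs, per the labels' protocols. STAR 2.27a, Partek, DESeq2 and GRCh38 are named in the submitters' processing notes without their roles. Which annotation and strand setting were used is not given in the sources used here. Main results rest on the whole-number read counts per gene that the authors deposited. Their second deposited table holds a normalized signal, equal to the count times 1 constant per library within 0.000497%, used here only as an alternative. The 3 rows named only by a number (at most 7.00e-05% of counts) name no gene and were left out.

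Counts were filtered with filterByExpr, scaled by TMM and compared with edgeR 4.0.16 (R 4.3.3; quasi-likelihood test, guide as the only term, Benjamini-Hochberg adjustment over all 17834 tested genes, threshold 0.05). Each SE is the absolute log2 fold change over the square root of F. CPM use TMM-scaled library sizes. The biological coefficient of variation was 0.0489. The departure fit used the members' summed counts as library size. Lists and markers are described by counts and medians, with no set test. Positions and start windows came from RefSeq (GRCh38.p14), coding lengths and overlaps from GENCODE 29.

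The members and lists were chosen with earlier results of these data known. The rule for named genes took the 6 largest changes past the threshold and the 6 largest departures in each direction, members in 3q29, 12q24 and on chromosome 15, the 3 highest and 3 lowest by CPM, members with a set function or a paralog, and up to 2 rises and 2 falls per list. It gave 70 genes, of which some are not reported here, and other genes named were chosen after their values were seen. Libraries of a guide differed from each other by more than sampling noise (chi-square per degree of freedom of 1.94 to 22.9).

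The steps were tested on simulated counts for the comparison of the guides over 17834 genes. Of 50 genes each changed 1.1-fold, 1.25-fold, 1.5-fold and 2-fold, 14%, 44%, 62% and 92% were recovered, and of 71 members lowered by 0.2 (log2) 90.1% were recovered. In the simulated departure fit all 6 members departing by 0.3 (log2) were found (100%) and 7.04% of 71 others were called. Smaller departures, such as most of those reported, were not simulated. The simulated comparison of the guides called 179 genes, against 8098 in the data, so its recovery rates need not hold for the data. Alternatives were DESeq2 1.42.0, limma-voom (limma 3.58.1), other scalings and filters, immunoglobulin genes left out, pseudogene rows added to their parents, a block for the letters, limma-trend on the deposited normalized values (pseudocount 1), and leaving out each library or both A libraries.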

Additional observations from a re-analysis of the deposited data

Results flagged for a closer look

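Of 148 groups of 5 libraries checked for a single distant value (gap to the nearest library over the whole range above 0.71), 14 held one, where chance gives about 1 in 20 groups. These groups are those of the named genes and ratios, and over all members the count was 6 of 154 groups. Among the members, RPL35A in control C was the highest control at 415 CPM (389 to 395 in the others), RPS18 in EFNB2 C was the lowest of its guide at 979 CPM (1019 to 1033), RPS27A in EFNB2 C was the lowest at 527 CPM (561 to 573), and RPL6 in EFNB2 D was the highest at 661 CPM (639 to 643). The ratio of small to large subunit counts in control A was the highest control at 0.595 (0.587 to 0.588 in the others).

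The other 9 lay in the A libraries, each on the side of the other guide. In EFNB2 A, RRP15 was at 39.2 CPM (35.5 to 36.3 in the others), PDCD4 at 1399 CPM (1129 to 1164), MYC at 9.09 CPM (6.54 to 6.86) and POLR1A at 146 CPM (139 to 141), all highest of the guide. In control A, NAP1L1 was at 886 CPM (928 to 945), PDCD4 at 1594 CPM (1855 to 1915), RPL7L1 at 240.0 CPM (251.9 to 256) and DDX49 at 82.2 CPM (86.5 to 87.5), all lowest of the controls. MDM4 in EFNB2 A was the lowest of its guide at 36.0 CPM (42.0 to 44.1).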

How the results depend on the processing

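Of the 77 members, 63 to 68 fell and 1 to 3 rose when each library was left out in turn, and 65 to 69 fell under other scalings, filters and tools. The rises numbered 1 with the replicate block. The members' median was -0.22 on the deposited normalized values and ran from -0.21 to -0.17 without single libraries. In the small subunit 25 to 27 and in the large 38 to 41 fell without single libraries, and the difference of their medians ran from 0.01 to 0.02. Against the pool, 13 were lower with scaling by the median of ratios over the members and 13 with the replicate block (20 in the reported fit, 16 to 23 with other filters or DESeq2, 18 without both A libraries; 18 to 22 lower and 9 to 12 higher without single libraries). The ratio of small to large subunit counts, EFNB2 guide over control, was 0.959 (0.957 to 0.961 without single libraries) and 1.01 without RPLP0, RPLP1 and RPL4. The cause of these shifts was not tested. Of 70 called members 64 kept their call in all 23 settings and none changed direction. RPL26, RPS15A, RPLP2, RPL35 and RPS15 were among those that lost it in some. RPL35 (-0.08) lost it without EFNB2 B, C or E or control C, and RPS15 (-0.10) without EFNB2 C, control C or control E. RPL17 and RPL36A passed in some settings only. The neighbours' median was -0.36 and -0.34 for RPL35A, and 0.25 and 0.25 for RPL4, within 0.5 and 2 Mb.

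The letters did not pair the libraries: deviations of same-letter libraries from their group means correlated at -0.24 to -0.00 over all genes and at -0.79 (A) to 0.42 (D) over the members, and no library correlated best with its own letter. With the replicate block 63 members fell, all among the 68, and RPL26, RPL35, RPLP2, RPS15, RPS15A, PELO and SNHG15 did not pass (edgeR adjusted p from 0.0576 to 0.0957). In that fit 6762 genes passed in all, against 8098 without it. No other scaling moved the median of all genes by more than 0.02. Among the lists, falls in ribosome quality control ranged from 1 to 7, rises in snoRNA hosts from 1 to 6, and falls and rises for RNA polymerase I from 4 to 8 and from 2 to 6. Depth limits RPS10, with 659 counts over all libraries.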

Other observations

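The count table also holds 1136 rows named as pseudogenes of members, of which 526 had a count and 105, from 46 parents, were tested. Of these 31 fell (29.5%), 4 rose (3.81%) and 70 did not pass, with a median of -0.14. Of all tested genes, 22.6% passed as lower and 22.8% as higher. Most of the pseudogene rows that passed were thus lower, as most members were. The shares are not over genes of like level, since tested pseudogene rows held 93 to 29938 counts over all libraries. Of tested non-members with a coding length, 11.5% passed as lower under 1 CPM and 29.1% at 10 to 100 CPM. Among the rows with most reads, RPL10P9, RPSAP58, RPL23AP42, RPL41P1, RPS7P1 and RPSAP47 fell, RPLP0P6 did not pass and RPL32P3 rose. The 4 that rose were RPS4XP19 (0.64, 3.52 to 5.50 CPM), RPL7P50 (0.50), RPL23P2 (0.47) and RPL32P3 (0.27, 16.2 to 19.5 CPM), while their parents RPS4X, RPL7, RPL23 and RPL32 fell. These rows were chosen for their values. Reads of processed copies and their parents may be split by the counting, so the levels of both are uncertain.

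Pseudogene rows together held at most 1.08% of the members' counts in any library. In 75 of the 77 members the pseudogene rows held under 10% of the parent's counts. The exceptions were RPL26 (11.6%) and RPS10, whose pseudogene rows held more counts than RPS10 itself (3665 against 659). The largest of these, RPS10P7, fell (-0.24, 7.28 to 6.16 CPM).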
